A study of Mus musculus with 2 samples.

Results

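The genes that build tight junctions, adherens junctions and desmosomes were examined in RNA from the gastric corpus, the acid-secreting body of the mouse stomach. They were chosen by symbol: numbered claudins (Cldn) and cadherins (Cdh), scaffolds (Tjp), the occludin family, junctional adhesion molecules, cingulins, and the desmosomal genes Dsg, Dsc, Dsp, Jup and Pkp1 to Pkp4. The rule found 82 genes among 37681 identifiers, and 43 of them were measured, that is, had at least 10 counts in at least 1 library. Both libraries came from C57BL/6 mice with an Hdc-CFP transgene, in which a cyan fluorescent protein reports Hdc, the gene for the histamine-forming enzyme. The first was made from corpus epithelial cells sorted as Hdc-CFP+ (the sorted library) and the second from corpus epithelium depleted of such cells (the depleted library). The study sorted these cells to ask where they originate. The age, sex and number of mice, and the promoter fragment that drives the reporter, are not given in the sources used here.

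Epithelial cells are sealed to each other at the tight junction, where claudins, occludin and its relatives span the membrane, junctional adhesion molecules flank them, and scaffold proteins tie them to actin. Below it, cadherins hold neighbouring cells together at adherens junctions through catenins, and desmosomal cadherins anchor keratin filaments through plakoglobin, plakophilins and desmoplakin. In the stomach this seal keeps acid in the lumen, and the claudin present in a cell type sets which ions can pass between its cells. Enterochromaffin-like (ECL) cells, the histamine-releasing endocrine cells of the corpus, lie within the glands and typically do not reach the lumen.

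Gene counts totalled 10736538 in the sorted library and 50928524 in the other. Levels are CPM, counts as a share of the library's total after scaling with trimmed-mean (TMM) factors, and a ratio is the CPM of 1 library over that of the other. Brackets hold 95% intervals for counting error alone. Each group holds a single library, so nothing here has a replicate check or a p-value, and each ratio compares these libraries. In bulk RNA, fewer cells of a type and less RNA per cell cannot be told apart. All 5 ECL markers (Hdc, Slc18a2, Chga, Chgb and Cckbr) were higher in the sorted library, in the direction of the label. Markers of other corpus cells were still present there: their summed CPM was 42.9-fold lower for surface mucous cells, 8.41-fold lower for mucous neck cells, 5.66-fold lower for parietal cells and 3.99-fold lower for chief cells. Of 4 chief cell markers 2 were lower and 2 neither, with Bhlha15 at 25.3 CPM (sorted) against 13.3 CPM (depleted). Pgc alone gave 15187 of the 16534 CPM (sorted) and 60505 of the 65945 CPM (depleted) of chief cell markers. All measured markers of the other types just named were lower. Macrophage markers summed to 8.95 CPM against 2737 CPM, and pancreatic acinar markers (4 of 6 measured, all higher) to 1538 CPM against 3.90 CPM. The part of these cells in the junction values was not tested.

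A gene was called higher or lower where its ratio was at least 2-fold with an interval clear of 1. Of the 43 measured junction genes, 14 were higher in the sorted library, 20 lower and 9 neither. Over all 16682 genes measured, 21.9% were higher and 21.9% lower by the same rule, 43.8% in all. Of the genes called, 62.9% were higher when no scaling factor was used, and close to as many were higher as lower with it (3652 and 3651). The median log2 ratio was -0.98 over the measured junction genes and -0.05 over all genes. At 4-fold with the interval clear of 2, 10 junction genes were higher and 6 lower, where 13.6% and 11.3% of all genes were called, 24.9% in all. Claudins and cadherins were called in both directions, and desmosomal genes in the lower direction alone.

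**Figure D1:**
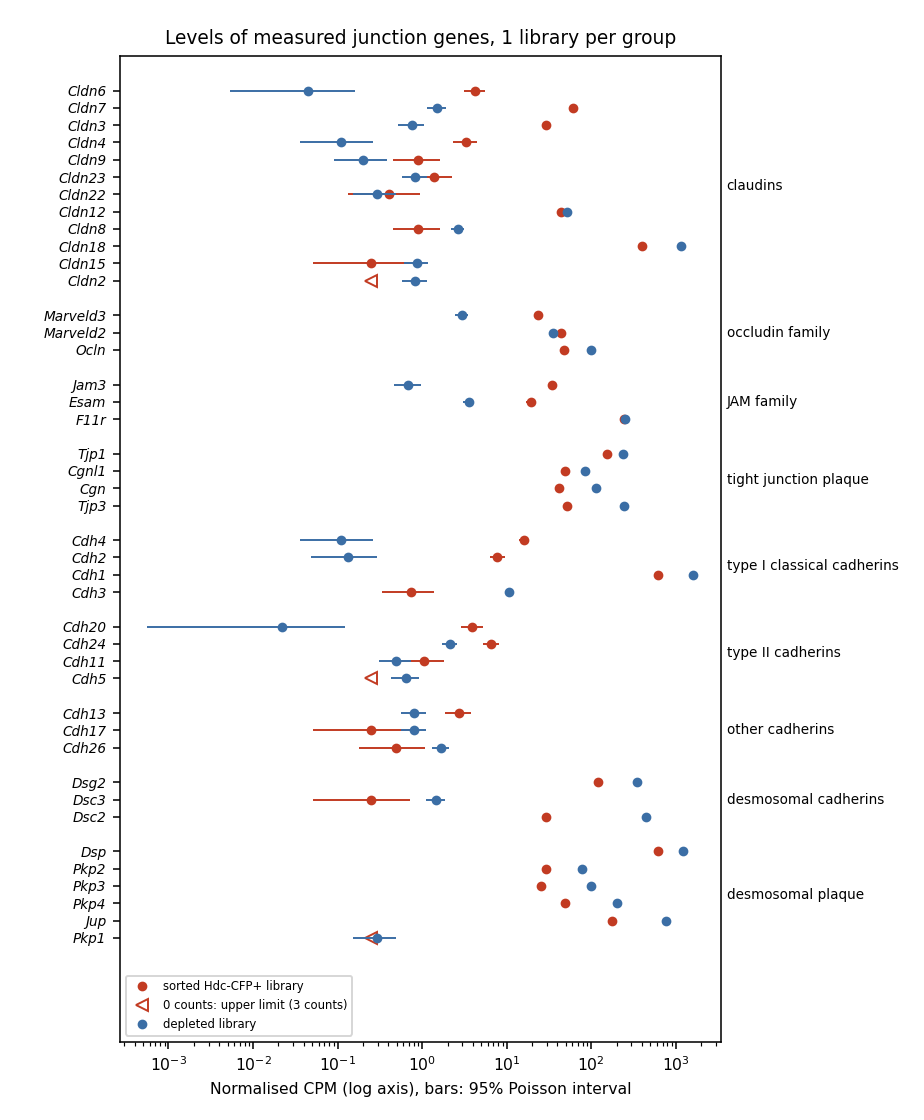
Normalised CPM (log axis) of measured junction genes in the sorted (red) and depleted (blue) libraries, with 95% Poisson intervals as bars and open triangles for the limit that a count of 0 allows. The genes with the highest CPM in the depleted library (Cdh1, Dsp, Cldn18, Jup) lie higher there than in the sorted one. F11r, which exceeds Jup in the sorted library, lies nearly level. Cldn3, Cldn7, Jam3 and Cdh4 lie higher in the sorted library.

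Claudins, the four-pass membrane proteins that form the seal itself, changed in composition. Cldn18 (ENSMUSG00000032473), the main claudin of the stomach and a barrier to acid, was the most abundant in both libraries, with 403 CPM (sorted) against 1159.6 CPM (depleted). This made it 2.87-fold lower among sorted cells [2.79 to 2.96]. It held 73.4% of claudin counts [72.4 to 74.5] among sorted cells and 95.1% [94.9 to 95.3] among depleted ones. Such shares compare genes within a library, so no scaling enters them, and their intervals are exact binomial ones.

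Cldn7, Cldn3, Cldn4, Cldn6 and Cldn9 were all higher in the sorted library. Together they held 17.97% of its claudin counts [17.1 to 18.9], beside 0.214% [0.177 to 0.256] in the depleted library. Cldn7 (ENSMUSG00000018569), found along the lateral membrane of many epithelia, had 743 counts (61.0 CPM) against 67 (1.49 CPM) and was 40.9-fold higher [31.8 to 53.3]. Cldn3 (ENSMUSG00000070473), a sealing claudin, had 357 counts (29.3 CPM) against 34 (0.757 CPM), a ratio of 38.7 [27.2 to 56.8]. Both were at 1.49 CPM or less in the depleted library. Cldn4, another sealing claudin, had 40 counts against 5 and was 29.5-fold higher [11.6 to 95.8]. Cldn6, known from embryonic epithelia, had 51 counts against 2, a ratio of 94.0 [24.7 to 797]. Cldn9 had 11 counts against 9, a ratio of 4.51 [1.70 to 12.3]. The last 3 therefore stood at 4.19 CPM or less in the sorted library, well under Cldn7 and Cldn3.

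The lower claudins besides Cldn18 were all rare. Cldn2, which forms cation pores in leaky epithelia, had 0 counts against 37, which makes it at least 3.34-fold lower. Cldn15, the pore-forming claudin of the intestine, had 3 counts against 39, a depleted over sorted ratio of 3.53 [1.12 to 17.8]. The call of Cldn15 was lost without a scaling factor (ratio 2.74) and with the 20 most abundant genes left out of the totals (3.06), where the interval held 1. Cldn8, a claudin of the distal nephron and colon, had 11 counts against 118, a ratio of 2.91 [1.57 to 5.99]. None of these reached 3 CPM in either library.

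Of the claudins that were neither, Cldn12 had the most counts, with 43.6 CPM (sorted) against 51.2 CPM (depleted). It was 1.18-fold lower [1.07 to 1.29], a direction that turned to 1.09-fold higher without a scaling factor. Cldn23 had 17 counts against 37 and Cldn22 had 5 against 13. The exons of Cldn22 lie wholly within exons of Wwc2 on the opposite strand, so without a stated strand setting its reads cannot be told from those of Wwc2. It also shares 44.7% of its 50-base words with transcripts of other genes. Per kilobase of exon, which allows levels of different genes to be compared, the order in the sorted library was Cldn18 (90.5 CPM per kb), Cldn7 (31.3), Cldn3 (23.3) and Cldn12 (10.3). In the depleted library it was Cldn18 (260.2 CPM per kb), Cldn12 (12.1), Cldn8 (1.12) and Cldn7 (0.766). By length, then, Cldn7 and Cldn3 exceeded Cldn12 in the sorted library and lay below it in the depleted one.

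The remaining 20 claudin genes were under the minimum. Cldn1, Cldn11, Cldn19 and Cldn20 had at most 4 counts in a library, and 16 had no count: Cldn5, Cldn10, Cldn13, Cldn14, Cldn16, Cldn17, Cldn24 and 9 Cldn34 genes, among them the pseudogene Cldn34-ps. Where no read was counted, the limit is 3 counts, equal to 0.246 CPM (sorted) or 0.0668 CPM (depleted).

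The 250 bases before the RefSeq transcription starts (GRCm38.p6) are shown for the 4 claudins with the most counts among those higher in the sorted library, and for Cldn18, since these carry the change in composition. Cldn7 and Cldn18 have a pair of starts each in that table, and counts per gene do not separate their transcripts. Capitals mark CACCTG or its reverse complement CAGGTG, the letters bound by the ZEB and Snail repressors of epithelial junction genes. All sequences run 5′ to 3′ towards the gene.
Cldn3, chr5:134985964-134986213, + strand: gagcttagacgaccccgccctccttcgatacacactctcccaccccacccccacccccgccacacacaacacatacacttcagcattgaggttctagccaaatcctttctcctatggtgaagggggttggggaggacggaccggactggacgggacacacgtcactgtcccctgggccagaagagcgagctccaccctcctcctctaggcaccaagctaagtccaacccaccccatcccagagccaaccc
Cldn4, chr5:134946935-134947184, - strand: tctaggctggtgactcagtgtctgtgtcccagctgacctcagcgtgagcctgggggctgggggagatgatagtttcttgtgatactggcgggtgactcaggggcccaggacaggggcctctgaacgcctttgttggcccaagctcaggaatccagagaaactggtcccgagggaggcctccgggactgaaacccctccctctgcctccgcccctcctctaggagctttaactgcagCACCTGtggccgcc
Cldn6, chr17:23679115-23679364, + strand: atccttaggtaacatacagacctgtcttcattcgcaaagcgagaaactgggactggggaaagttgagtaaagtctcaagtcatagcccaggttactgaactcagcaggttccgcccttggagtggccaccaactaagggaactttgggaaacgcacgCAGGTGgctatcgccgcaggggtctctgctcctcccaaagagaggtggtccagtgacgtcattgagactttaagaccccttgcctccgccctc
Cldn7 upstream start, chr11:69964529-69964778, + strand: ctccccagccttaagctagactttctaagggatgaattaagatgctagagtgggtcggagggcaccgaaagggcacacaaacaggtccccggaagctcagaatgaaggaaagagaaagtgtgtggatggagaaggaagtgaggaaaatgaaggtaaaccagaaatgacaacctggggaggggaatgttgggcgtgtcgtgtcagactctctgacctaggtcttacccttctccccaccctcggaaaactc
Cldn7 downstream start, chr11:69965171-69965420, + strand: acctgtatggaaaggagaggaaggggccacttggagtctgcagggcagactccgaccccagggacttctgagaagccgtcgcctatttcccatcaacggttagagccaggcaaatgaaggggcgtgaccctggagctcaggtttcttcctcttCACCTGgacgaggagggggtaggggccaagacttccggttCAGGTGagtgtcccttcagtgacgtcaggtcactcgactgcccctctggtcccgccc
Cldn18 upstream start, chr9:99717268-99717517, - strand: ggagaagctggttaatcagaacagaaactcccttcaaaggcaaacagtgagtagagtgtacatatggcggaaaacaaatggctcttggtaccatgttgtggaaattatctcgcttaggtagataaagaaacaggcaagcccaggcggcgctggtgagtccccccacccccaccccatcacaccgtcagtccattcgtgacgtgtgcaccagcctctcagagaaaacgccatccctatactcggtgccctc
Cldn18 downstream start, chr9:99710064-99710313, - strand: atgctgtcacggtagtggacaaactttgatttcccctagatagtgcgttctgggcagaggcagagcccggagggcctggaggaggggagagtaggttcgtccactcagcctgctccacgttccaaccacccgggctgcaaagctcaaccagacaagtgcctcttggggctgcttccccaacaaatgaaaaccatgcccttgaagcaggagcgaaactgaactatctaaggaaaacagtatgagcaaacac

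In Cldn4 the motif began 14 bases before the start, in Cldn6 93 bases before, and at the downstream start of Cldn7 97 and 57 bases before. Neither Cldn18 start, nor that of Cldn3, nor the upstream one of Cldn7 held it. Of the 62 promoters of 48 junction genes in the table, 19.4% held the motif, beside 17.2% of all 32851 promoters. It was found in 3 of 7 promoters of genes called higher and 4 of 13 of genes called lower. It was also in 1 of 10 promoters of genes that were neither and 4 of 32 of genes not measured. These promoters cover only 6 of the 14 genes called higher and 9 of the 20 called lower. A second motif, AACNGGTT on either strand, of the Grainyhead-like family, can neither contain the first nor lie within it, though matches may overlap. It occurred in none of the promoters shown, in 3.23% of junction gene promoters (Cgn and Cldn5) and in 1.79% of all. These matches describe letters and are not binding sites.

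Occludin and its relatives, four-pass proteins that border the claudin strands, shifted in their proportions. Ocln itself stood at 47.9 CPM (sorted) against 100.5 CPM (depleted), 2.10-fold lower [1.92 to 2.29]. Marveld3 (ENSMUSG00000001672) had 286 counts (23.5 CPM) against 132 (2.94 CPM) and was 7.99-fold higher [6.48 to 9.90]. Marveld2, or tricellulin, which seals the corners where cells meet, differed by less than 2-fold, at 44.0 CPM against 35.3 CPM. Ocln thus gave 41.5% of this family's counts in sorted cells [38.9 to 44.1] and 72.5% in depleted ones [71.3 to 73.6]. The ratio of Ocln went under 2-fold without a scaling factor (1.63) and with the 20 most abundant genes left out of the totals (1.82).

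Among the junctional adhesion molecules, F11r (JAM-A), the epithelial member, was nearly level at 243 CPM (sorted) against 252 CPM (depleted). Its ratio of 0.965 [0.926 to 1.005] turned to 1.24 without a scaling factor and to 1.11 with the most abundant genes left out. Jam3 (JAM-C) had 421 counts (34.6 CPM) against 31 (0.690 CPM) and was 50.1-fold higher [34.7 to 74.7]. Esam, named for its presence in endothelium, had 234 counts (19.2 CPM) against 160 (3.56 CPM) and was 5.39-fold higher [4.39 to 6.64]. Jam2 had 3 counts in each library. Jam3 held 11.6% of the family's counts in the sorted library and 0.269% in the depleted one, and F11r 81.8% and 98.3%. In GENCODE M21, 36.2% of the exon length of Jam3 overlaps Gm48796 on the opposite strand, so part of its reads could belong to that gene.

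Endothelial markers moved in both directions beside Esam and Jam3. Of 10 listed, 8 were measured, with 2 higher in the sorted library (Plvap, 17.4-fold, and Vwf, 6.24-fold), 3 lower and 3 neither. Their summed level was 52.4 CPM (sorted) against 14.1 CPM (depleted), of which Plvap gave 45.4 and 2.61 CPM. Tie1 had 0 counts in the sorted library against 83, and Pecam1 was 4.81-fold lower. Kdr, with 1 count against 16, was neither. Flt1 (0 against 7) and Emcn (0 against 3) were under the minimum, so their counts of 0 in the shallower library show no direction. Cdh5, the VE-cadherin of endothelium, had 0 counts in the sorted library against 29. The part of endothelial cells in the values of Jam3 and Esam was not tested.

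Scaffold proteins of the tight junction, which bind the tails of claudins, were called lower or neither. Tjp3 (ZO-3) stood at 52.0 CPM (sorted) against 247 CPM (depleted), 4.75-fold lower [4.38 to 5.15]. Tjp1 (ZO-1), which also serves cells without tight junctions, stood at 153 against 241 CPM and differed by 1.57-fold [1.496 to 1.65], under the threshold. Per kilobase Tjp1 was above Tjp3 in the sorted library (19.6 against 14.0 CPM per kb) and below it in the depleted one (30.8 against 66.4 CPM per kb). Of the cingulins, which link the scaffold to myosin, Cgn was 2.77-fold lower [2.52 to 3.04] and Cgnl1 1.71-fold lower [1.56 to 1.86]. Cgn shares 17.2% of its 50-base words with transcripts of other genes.

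**Figure D2:**
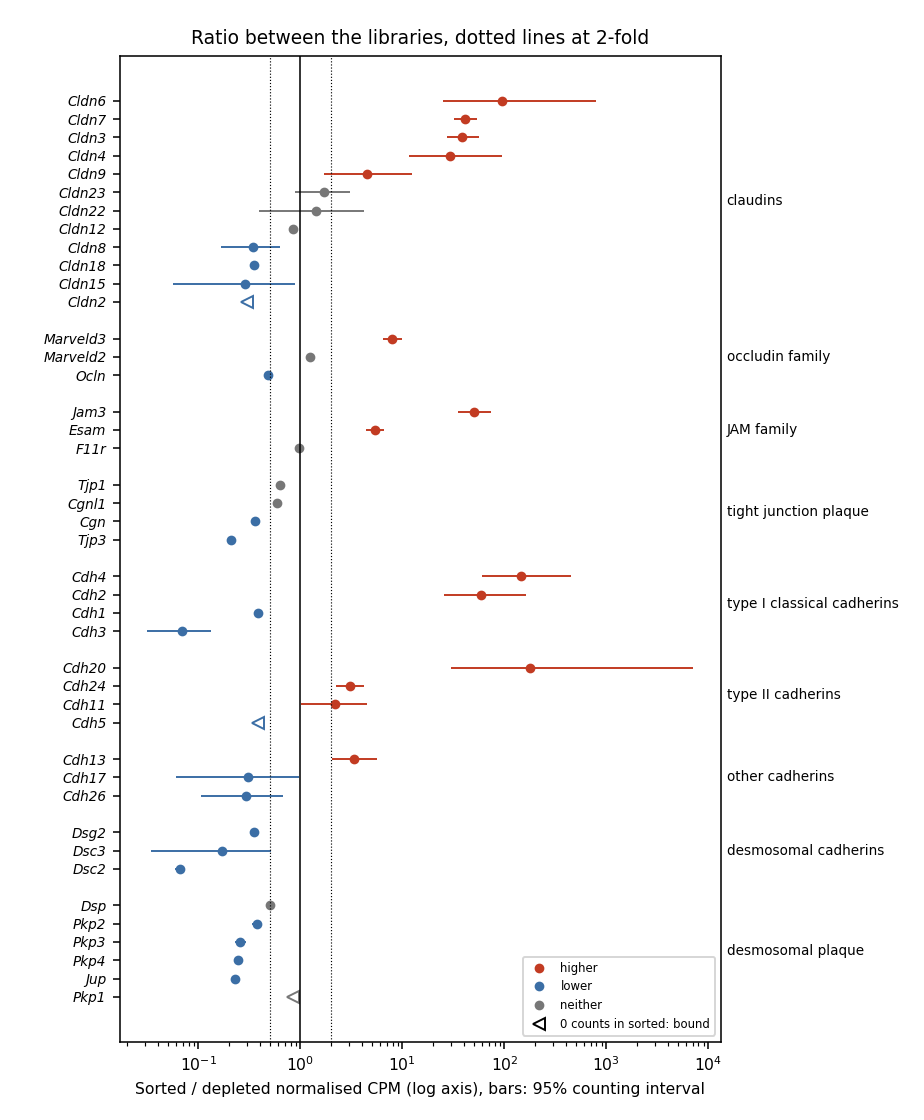
Ratio of normalised CPM, sorted over depleted (log axis), for measured junction genes by class, with 95% counting intervals as bars, open triangles for bounds against 0 counts and dotted lines at 2-fold. Ratios lie on both sides of 1 among claudins and cadherins. All 9 measured desmosomal genes are drawn below 1, but Pkp1 is a bound whose interval (not drawn) reaches 1.21.

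Classical type I cadherins, the calcium-dependent adhesion molecules of adherens junctions, were called in both directions. Cdh1 (ENSMUSG00000000303), or E-cadherin, had the most cadherin counts in both libraries, with 617 CPM (sorted) against 1611 CPM (depleted), and was 2.61-fold lower [2.55 to 2.67]. Cdh3 (P-cadherin), typical of basal layers, had 9 counts against 477 and was 14.4-fold lower [7.51 to 31.6]. Cdh2 (N-cadherin), the cadherin of neurons and of several endocrine tissues, had 95 counts (7.80 CPM) against 6 (0.134 CPM) and was 58.4-fold higher [25.9 to 163]. Cdh4 (R-cadherin, ENSMUSG00000000305), known from retina and brain, had 196 counts (16.1 CPM) against 5 (0.111 CPM), a ratio of 145 [60.9 to 450.1]. Cdh15 had no count.

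Type II cadherins were rare in both libraries. Cdh20 had 48 counts (3.94 CPM) against 1, a ratio of 177 [30.3 to 7135]. Cdh24 had 80 counts (6.57 CPM) against 96 (2.14 CPM) and was 3.07-fold higher [2.25 to 4.18]. Cdh11, a cadherin of mesenchymal cells, was near the threshold with 13 counts against 22, a ratio of 2.18 [1.008 to 4.52]. Its call was lost with DESeq2 size factors (ratio 2.05) and with TMM factors over all genes (2.02). Fibroblast markers, which mark such cells, summed to 0.575 CPM (sorted) against 18.04 CPM (depleted), with Col3a1 at 0 counts against 364 and Pdgfra at 0 against 14 (neither). Their part in the Cdh11 value was not tested. Cdh5, described above, was at least 2.62-fold lower.

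Outside these classes, Cdh13 (T-cadherin), which lacks a cytoplasmic tail, had 33 counts against 36 and was 3.38-fold higher [2.04 to 5.58]. Cdh17, the liver-intestine cadherin, had 3 counts against 36, a depleted over sorted ratio of 3.25 [1.03 to 16.5]. Its call was likewise lost under both scalings named for Cldn15 (ratios 2.53 and 2.82), where the interval held 1. Cdh26 had 6 counts against 75 and was 3.39-fold lower [1.49 to 9.53]. All 3 stayed under 3 CPM. Of the other cadherins, Cdh7, Cdh8, Cdh10, Cdh12, Cdh18 and Cdh19 had no count, and Cdh6, Cdh9, Cdh16, Cdh22 and Cdh23 had at most 9.

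Cdh1 held most of the cadherin counts throughout. Cdh1 gave 93.9% of cadherin counts in sorted cells [93.4 to 94.4] and 98.9% in depleted ones [98.8 to 99.0]. Cdh2, Cdh4 and Cdh20 together gave 4.24% [3.81 to 4.70] and 0.0164% [0.00848 to 0.0287]. Per kilobase, Cdh1 stood at 135 CPM per kb in the sorted library, and the next, Cdh4, at 2.22. Cdh1 was also the highest of all 82 genes per kilobase in both libraries. Neuronal markers were higher beside Cdh2, Cdh4 and Cdh20: Elavl4 stood at 24.6 CPM (sorted) against 0.0891 CPM (depleted) and Tubb3 at 1.23 against 0.356 CPM. Of glial markers, Sox10 had 0 counts in both libraries and S100b had 2 and 5. Their part in the cadherin values was not tested.

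Desmosomes, which tie keratin filaments of neighbouring cells together, had 9 measured genes, with a median log2 ratio of -2.05. Of these, 7 were lower (77.8%), 0 higher and 2 neither, beside 21.9% of all genes in each direction. Dsc2, the desmocollin of simple epithelia and heart, stood at 29.1 CPM (sorted) against 441 CPM (depleted), 15.2-fold lower [13.6 to 16.9]. Dsg2, the desmoglein of the same tissues, stood at 121 against 348 CPM, 2.88-fold lower [2.73 to 3.04]. Dsc2 made up 19.4% of their joint counts in sorted cells [17.6 to 21.3] and 55.9% in depleted ones [55.4 to 56.4]. Dsc3, of stratified epithelia, had 3 counts against 65, a depleted over sorted ratio of 5.88 [1.92 to 29.2]. Dsg4 had 0 and 3 counts. Dsc1, Dsg1a, Dsg1b, Dsg1c and Dsg3, mostly of skin, had no count.

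In the desmosomal plaque, Jup (plakoglobin), which also serves adherens junctions, stood at 179 against 776 CPM and was 4.34-fold lower [4.15 to 4.53]. Its relative Ctnnb1 (beta-catenin) differed by 1.07-fold [1.04 to 1.10]. Jup gave 23.6% of the counts of both in sorted cells [22.7 to 24.5] and 55.6% in depleted ones [55.2 to 56.0]. The plakophilins Pkp4, Pkp3 and Pkp2, armadillo proteins that cluster desmosomal cadherins, were 4.13-fold [3.80 to 4.50], 3.88-fold [3.45 to 4.36] and 2.69-fold lower [2.41 to 3.01]. Pkp1, of stratified epithelia, had 0 counts against 13, with a bound of 1.18-fold. Dsp (desmoplakin), the link to keratin, stood at 624 CPM against 1227 CPM. Its ratio of 1.97 [1.92 to 2.02] lay just under the threshold and passed it with DESeq2 size factors (2.09) and with TMM factors over all genes (2.12). Dsp held 68.9% of desmosomal plaque counts in sorted cells [68.0 to 69.8] and 51.6% in depleted ones [51.3 to 51.9].

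Squamous markers, of the forestomach and other stratified epithelia, moved in both directions beside Dsc3, Cdh3 and Pkp1. Of 10 listed, 5 were measured: Krt10, Krt1 and Lor were higher in the sorted library, Krt13 lower (1 count against 51) and Krt14 neither. Over the whole list the summed level was 11.3 CPM (sorted) against 4.23 CPM (depleted). Trp63 and Sprr3 had 0 counts in both libraries, and Krt5 had 0 and 2. The part of squamous cells in the values of Dsc3, Cdh3 and Pkp1 was not tested.

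**Figure D3:**
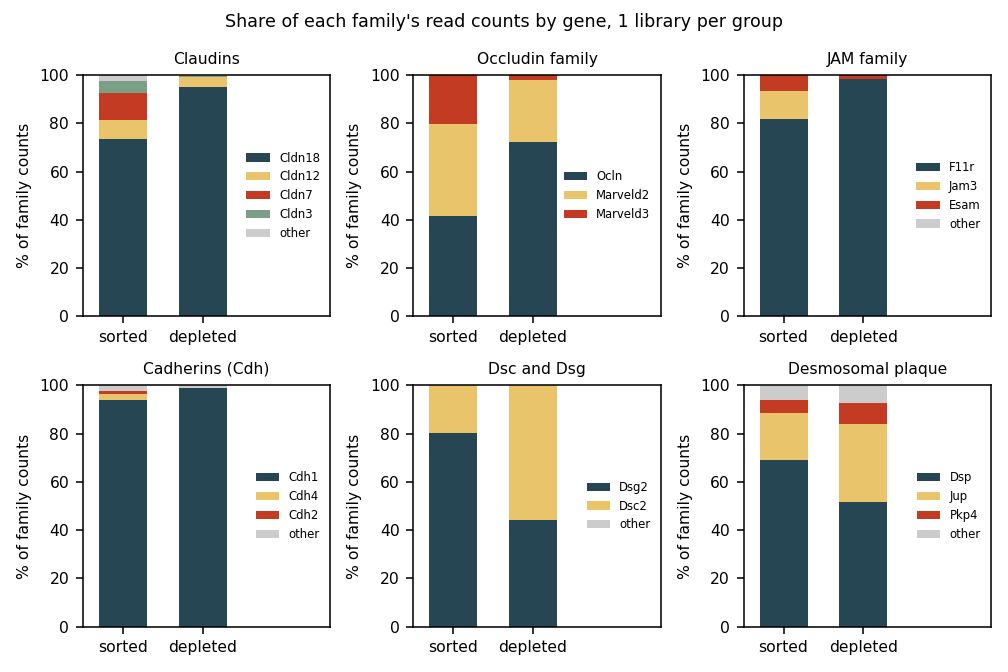
Share of read counts (percent, linear axis from 0) held by each gene within 6 junction families, with a bar for each library. Cldn18 holds 73.4% of claudin counts in the sorted library and 95.1% in the depleted one, and Dsc2 19.4% and 55.9% of the Dsc2 and Dsg2 counts.

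Several of these genes are neighbours in the genome. In RefSeq (GRCm38.p6), 7 pairs of measured junction genes had no protein-coding gene between them. In 4 of them both genes were called in 1 direction: Cldn4 with Cldn3 and Cldn6 with Cldn9 were higher, and Cdh3 with Cdh1 and Dsc3 with Dsc2 were lower. In 2 pairs the calls were opposite: Cdh2 was higher beside the lower Dsc3, and Cdh11 higher beside the lower Cdh5. In the seventh, Ocln was lower and Marveld2 neither. These pairs share members (Dsc3), so they are not independent. The share of neighbouring pairs called alike over all genes was not computed, so nothing on neighbours is read from these counts.

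Genes that act with the junction proteins were taken from lists set by function, in which 142 genes, all but Dchs2, were found and 115 measured. Over all lists 33 were higher, 41 lower and 41 neither, beside the 21.9% of all genes in each direction, with a median log2 ratio of -0.35. Without a scaling factor 35 partner genes were higher and 34 lower, where 4741 of all genes were higher and 2792 lower. With the 20 most abundant genes left out, 35 were higher and 36 lower, where 4228 of all genes were higher and 3136 lower. The split over all genes thus moved with the scaling as well. These lists are described by their counts, and their members are not replicates.

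Catenins were called in both directions. Of 16 adherens junction catenins and linkers, 6 were higher (37.5%), 6 lower (37.5%) and 4 neither, beside 21.9% of all genes in each direction. Ctnna1 (alpha-E-catenin) stood at 268 CPM (sorted) against 972 CPM (depleted), 3.62-fold lower [3.49 to 3.75]. Ctnnd1 (p120-catenin) was 3.06-fold lower [2.95 to 3.19], with 61.2% of its exon length overlapping Gm28635. Ctnnb1, at 579 against 621 CPM, was level. Ctnnd2, the neural p120 relative, had 22 counts against 1, a ratio of 81.1 [13.1 to 3348].

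Linkers and keratins of the desmosome were mostly lower: 7 of 9 lower (77.8%) and 2 higher (22.2%), with a median log2 ratio of -2.70. Over all genes 21.9% were lower and 21.9% higher. The simple keratin genes Krt19, Krt8 and Krt18 were 22.1-fold [21.1 to 23.1], 9.14-fold [8.79 to 9.49] and 4.23-fold lower [4.08 to 4.39]. Pof1b, an actin-binding junction protein, was 23.9-fold lower [18.7 to 31.0]. Krt7, another simple keratin, was 27.7-fold higher [25.4 to 30.3], at 355 CPM against 12.8 CPM. Of these keratins Krt7 alone was higher in the sorted library.

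Tricellular and accessory proteins had 12 of 15 genes measured, with a median of -2.40, or -1.83 with genes at 0 counts at their bound. Of the 12, 9 were lower (75.0%), 1 higher (8.33%) and 2 neither, beside 21.9% of all genes in each direction. Ildr1, which recruits tricellulin to cell corners, had 264 counts (21.7 CPM) against 30 (0.668 CPM) and was 32.5-fold higher [22.2 to 49.1]. Cxadr, the coxsackievirus and adenovirus receptor, was 6.10-fold lower [5.76 to 6.46] and Emp1 8.28-fold lower [7.37 to 9.34]. Clmp, an adhesion molecule related to Cxadr, had 1 count against 356, a depleted over sorted ratio of 96.5 [17.2 to 3824]. Epcam, which binds Cldn7, stood at 452 against 229 CPM, a ratio of 1.98 [1.91 to 2.04] that lay just under the threshold.

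Polarity genes had the median nearest to 0 of the 9 lists. Of 20 genes 6 were higher, 2 lower and 12 neither, with a median log2 ratio of -0.03. Over all genes 21.9% were higher and 21.9% lower. Llgl2, of the basolateral Scribble group, stood at 278 against 266 CPM, and Dlg1 and Scrib were 1.65-fold [1.56 to 1.76] and 1.69-fold lower [1.59 to 1.80]. Lin7a, a small scaffold also found at synapses, had 932 counts (76.5 CPM) against 13 (0.290 CPM), a ratio of 264 [154 to 498]. Pard6b, of the apical Par complex, was 4.85-fold lower [4.17 to 5.67]. Among 15 adaptors and signalling proteins 2 were higher, 3 lower and 10 neither, beside the same 21.9% of all genes in each direction. Sympk, Arhgef2 and Stk38 differed by at most 1.36-fold, Magi2, a scaffold of neurons and podocytes, was 20.3-fold higher [11.8 to 37.0] and Micall2 4.65-fold lower [3.99 to 5.45].

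Among 8 measured nectins and relatives 2 were higher (25.0%), 3 lower (37.5%) and 3 neither, beside 21.9% of all genes in each direction. Nectin2 was 3.62-fold lower [3.27 to 4.02] and Pvr, its close relative, had 9 counts against 525 and was 15.8-fold lower [8.27 to 34.8]. Cadm4 was 5.06-fold higher [4.27 to 6.01], and Cadm1, at 21.6 against 30.1 CPM, differed by 1.40-fold [1.22 to 1.60]. Of protocadherins and other distant cadherins, 9 of 16 measured genes were higher, 2 lower and 5 neither, with a median log2 ratio of 1.63. Celsr3, a seven-pass cadherin of neurons, had 3144 counts (258 CPM) against 62 (1.38 CPM) and was 187-fold higher [145 to 244]. Clstn1, a calsyntenin of vesicle transport, was 3.04-fold higher [2.93 to 3.15] and Fat1 1.82-fold higher [1.76 to 1.87]. Pcdh20 had 1 count against 75, a depleted over sorted ratio of 20.3 [3.54 to 814].

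Gap junction genes, whose channels couple neighbouring cells, had 8 measured members. Of these, 3 were higher (37.5%), 2 lower (25.0%) and 3 neither, beside 21.9% of all genes in each direction. Gjb1, a connexin of gland cells, stood at 27.8 against 236 CPM and was 8.49-fold lower [7.62 to 9.49]. Gja1, a connexin of heart and many other tissues, had 6 counts against 357 and was 16.1-fold lower [7.34 to 44.3]. Gjd2, the connexin of neurons and pancreatic beta cells, had 201 counts (16.5 CPM) against 2, a ratio of 371 [101 to 3081]. Panx1 differed by 1.26-fold [1.09 to 1.47].

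Transcription regulators of epithelial junction genes were lower in 7 of 11 measured cases (63.6%), higher in 2 (18.2%) and neither in 2. The share over all genes was 21.9% in each direction. Grhl2, which activates Cdh1 and claudin genes in other epithelia, had 55 counts (4.52 CPM) against 3639 (81.0 CPM) and was 17.9-fold lower [13.8 to 23.9]. The splicing regulators Esrp2 and Esrp1 stood at 82.3 and 110.4 CPM in the sorted library and were 2.35-fold [2.21 to 2.52] and 1.90-fold lower [1.80 to 2.02]. The latter was under the threshold. The repressors Zeb1 and Zeb2, which act on Cdh1, went in opposite directions. Zeb1 had 319 counts (26.2 CPM) against 35 (0.779 CPM) and was 33.6-fold higher [23.7 to 49.1], while Zeb2 had 8 counts against 2278 and was 77.2-fold lower [39.1 to 179]. Zeb1 made up 97.6% of their joint counts in sorted cells [95.2 to 98.9] and 1.51% in depleted ones [1.06 to 2.10]. All 7 macrophage markers were lower beside Zeb2, Csf1r with 5 counts against 24469, and their part in the Zeb2 value was not tested.

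**Figure D4:**
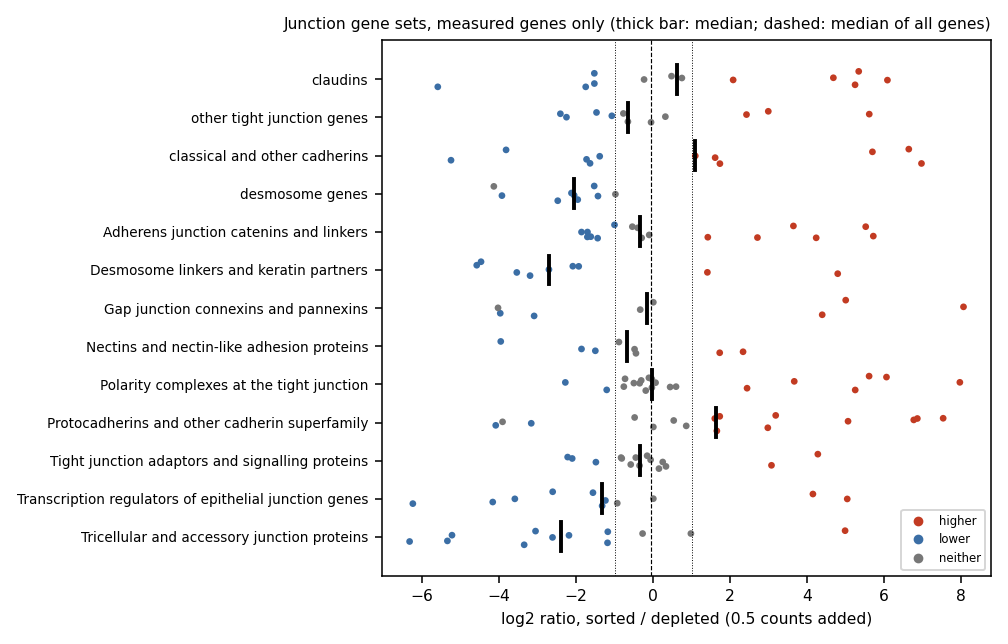
Log2 ratio, sorted over depleted (0.5 counts added), of each measured gene in 4 groups of junction genes and 9 lists of partner genes, coloured by call, with the set median as a thick bar and the median of all genes as a dashed line. Desmosome linkers and keratins (-2.70), tricellular and accessory proteins (-2.40) and desmosome genes (-2.05) have the lowest medians, and protocadherins and other distant cadherins (1.63) the highest.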

How the data were processed

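RNA was sequenced in 1 library of sorted Hdc-CFP+ cells and 1 of the depleted corpus epithelium. Per the labels' protocols, RNeasy columns and a TruSeq RNA kit were used. TopHat2 2.0.07, HTSeq and the mm9 build are named in the submitters' processing notes. No source used here gives the strand setting or the annotation release. Whole-number counts of reads per Ensembl gene were deposited by the authors for each library. The 5 summary rows, which name no gene, stayed out of all totals used for CPM. Of the sum of all rows, counts outside genes made up 9.20% (sorted) and 4.91% (depleted), and counts in more than 1 gene 1.45% and 1.11%. Counts labelled as alignments that are not unique made up 24.2% and 34.3% of that sum. Genes that share sequence with others can lose reads that way: among junction genes with no count, Cldn24 shares 68.9% of its 50-base words with transcripts of other genes, Dsg1a, Dsg1b and Dsg1c 29.6% to 48.9%, and Cldn34b1, Cldn34b2, Cldn34b3 and Cldn34c1 13.8% to 44.2%, while the other 5 Cldn34 genes share none.

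Symbols came from GENCODE M21, which named 32642 of 37681 identifiers. Exon lengths, exon overlaps and shared 50-base words came from M21 too, and promoters and neighbours from RefSeq; both are on GRCm38, while the counts are on mm9. TMM factors (edgeR 4.0.16, R 4.3.3) over genes with at least 10 counts in a library were 1.13 (sorted) and 0.882 (depleted). Ratios carry exact binomial (Clopper-Pearson) 95% intervals and CPM values exact Poisson ones. A ratio against 0 counts is a bound at 3 counts. Median log2 ratios have 0.5 counts added in proportion to library size. The genes, lists and rules were chosen with earlier results of these data known. Values are given for every measured junction gene except 1 that, like 1 marker gene, is not reported here but is included in the counts and medians, and in each partner list for the 3 genes with the highest CPM and the gene with the largest ratio in each direction. Alternatives were other scalings (none, DESeq2 1.42.0 size factors, upper quartile, totals without the 20 most abundant genes and, added after seeing the data, TMM over all genes), count minimums of 1 and 30, a 4-fold rule and a prior of 2 counts.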

Additional observations from a re-analysis of the deposited data

How the results depend on the processing

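Against the main scaling, the median log2 ratio of all genes shifted by 0.36 without a factor, by 0.20 with totals that leave out the 20 most abundant genes and by -0.11 with TMM over all genes (added after seeing the data), and reached 0.31, 0.16 and -0.16. In the same order the median of the junction genes was -0.61, -0.77 and -1.09, that of the tight junction genes other than claudins -0.29, -0.45 and -0.76, and that of the desmosome genes -1.68 and -1.84 in the first pair. With DESeq2 size factors the junction and other tight junction medians were -1.07 and -0.74. The junction median was -1.02 with a minimum of 30 counts and also with a minimum of 1 count, and -0.77 with genes at 0 counts at their bound. A minimum of 1 count brought the other tight junction median to -0.35 and turned the cadherin median from 1.10 to -1.28, with 5 cadherins added that had at most 9 counts in a library. The 4-fold rule left 6 junction genes lower in place of 20, 27 partner genes higher and 24 lower in place of 33 and 41, and 2272 genes higher and 1880 lower in all in place of 3652 and 3651. No junction gene called higher or lower changed direction under any scaling. Without a factor and with the abundant genes left out, Cldn15, Ocln and Cdh17 lost their call (the ratios of Cldn15 and Cdh17 stayed above 2), which left 17 junction genes lower, with 15 and 14 higher, and Cldn23 gained one without a factor (2.18-fold higher). No library could be left out with 1 per group, and no replicate block could be fitted. No paired analysis was possible because each group holds 1 library. Depth limits the sorted library, 4.74 times shallower than the depleted one: genes with a few counts there, such as Cldn15, Dsc3 and Cdh17, have intervals that end near 1 or 2-fold.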
